A study of Homo sapiens with 13 samples.

Results

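The RUNX transcription factor genes RUNX1, RUNX2 and RUNX3, the gene of their common partner subunit CBFB, and the ETS family genes ETS1 and ELK3 were examined in MDA-MB-231 cells. These 6 genes were taken as a list by name, out of 19881 protein-coding genes with a canonical transcription start site (TSS) in GENCODE release 44 on hg19. They have 11 separate promoters out of 29099 promoters of protein-coding genes, when start sites of basic transcripts closer than 500 bp are joined. Genomic positions below are those of hg19, and gene bodies span the basic transcripts.

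The established human line MDA-MB-231 derives from a triple-negative breast cancer of the basal B type, and the cells were neither treated nor compared with another condition. Chromatin was immunoprecipitated and sequenced in 2 replicates each for H3K4me1, H3K27ac, H3K4me3, RNA polymerase II (Pol II) and CTCF, and in 1 library for p300/CBP. H3K4me1 marks enhancers, H3K27ac active enhancers and promoters, and H3K4me3 promoters; p300 and CBP are acetyltransferases recruited to active enhancers, and CTCF binds insulators and loop anchors. Each antibody is represented by 1 list of peak positions made after the replicates had been merged, with no height per peak, so that presence, width and distance can be described but neither replicate error nor signal strength, and no test between genes was made.

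RUNX proteins bind the letters ACCACA, which read TGTGGT on the opposite strand, as heterodimers with CBFB, which does not bind DNA by itself but raises the affinity of its partner. RUNX1 is known for its part in blood formation, RUNX2 in bone formation and RUNX3 in lymphocytes and sensory neurons. Each RUNX gene has a distal promoter, P1, and a proximal promoter, P2, which give proteins with different N-termini. ETS factors bind a GGAA core, ETS1 being a target of MAP kinase signalling with roles in endothelial cells, lymphocytes and invasive tumours. ELK3 (also named Net) belongs to the ternary complex factors, ETS proteins that bind DNA together with the serum response factor SRF.

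The promoters of these genes were of unequal base composition, and 3 that carried promoter marks, both of RUNX1 and the downstream one of ETS1, are shown because they differed in CG content. Each is the stretch of 150 bases before the outermost start of the promoter, read 5′ to 3′ on the transcribed strand (minus for both genes) from the hg19 reference, with CG dinucleotides in capitals. The RUNX1 P1 stretch lies at chr21:36421642-36421791, RUNX1 P2 at chr21:36260988-36261137 and the downstream ETS1 start at chr11:128392206-128392355; none of these bases is exonic in the annotation.
RUNX1 P1: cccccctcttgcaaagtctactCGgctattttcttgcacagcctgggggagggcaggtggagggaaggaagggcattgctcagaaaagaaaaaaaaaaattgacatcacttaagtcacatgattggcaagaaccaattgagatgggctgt
RUNX1 P2: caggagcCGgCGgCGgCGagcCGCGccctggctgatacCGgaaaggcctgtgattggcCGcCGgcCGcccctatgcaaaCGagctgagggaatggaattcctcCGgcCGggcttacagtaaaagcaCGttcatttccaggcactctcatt
ETS1 downstream: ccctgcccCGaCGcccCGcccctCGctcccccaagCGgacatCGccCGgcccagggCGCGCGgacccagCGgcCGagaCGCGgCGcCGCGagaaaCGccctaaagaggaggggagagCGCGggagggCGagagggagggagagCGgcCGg
The RUNX1 P1 stretch holds 1 CG, the RUNX1 P2 stretch 14 and the downstream ETS1 stretch 23. Over the 300 bases from 250 before to 50 after the start, GC content was 43.0% at RUNX1 P1 and 42.7% at RUNX2 P1, against 71.7% at RUNX1 P2, 63.7% at RUNX2 P2, 79.0% at the downstream ETS1 start, 79.7% at CBFB and 83.7% at ELK3. RUNX3 had 66.3% at P1 and 76.0% at P2.

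The 3 RUNX P1 promoters share a tandem RUNX site, and these 30-base sites are shown because no other promoter of the 6 genes holds such a pair. They are printed 5′ to 3′ on the transcribed strand, with the ACCACA letters in capitals.
RUNX1 P1: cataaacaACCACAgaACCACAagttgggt
RUNX2 P1: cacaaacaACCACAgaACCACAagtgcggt
RUNX3 P1: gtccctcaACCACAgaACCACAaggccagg
The RUNX1 site lies at chr21:36421556-36421585, 22 to 35 bases after the canonical start, the RUNX2 site at chr6:45296075-45296104, 16 to 29 bases after it, and the RUNX3 site at chr1:25291611-25291640, 131 to 118 bases before the P1 start. In all 3 the repeats begin 8 bases apart. Among the canonical promoters of all 19881 genes, 16 (0.0805%) hold ACCACA in 2 copies that begin 6 to 12 bases apart on the same strand, and RUNX1 and RUNX2 are among these 16; P1 is not the canonical start of RUNX3. MMP13, a gene that RUNX2 is known to activate in cartilage and bone, is another of the 16, with repeats 7 bases apart. It was named after the 16 had been seen, and no peak of any list lay within 1500 bp of its canonical start. Others of them, such as BCL2L15, CHRNB3 and ZNF500, are not among the RUNX targets read below. RUNX2 P1 holds the RUNX letters at 4 places in all. A match of letters is a description of the reference and says nothing of binding, as RUNX proteins were not immunoprecipitated.

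In MDA-MB-231 cells, RUNX1, RUNX2, CBFB, ETS1 and ELK3 each had a promoter with H3K27ac, H3K4me3 and Pol II, whereas RUNX3 had none. A promoter was read as a window reaching 1500 bp beyond its outermost starts. Peaks of H3K27ac were found at 7 of the 11 promoters (54.1% of all promoters), of H3K4me3 at 7 (54.3% of all), of Pol II at 7 (50.1% of all), of H3K4me1 at 6 (56.1% of all), of p300/CBP at 2 (0.938% of all) and of CTCF at 2 (16.2% of all). The same 7 promoters carried H3K27ac, H3K4me3 and Pol II: the 3 starts of RUNX1, RUNX2 P2, CBFB, the downstream start of ETS1 and ELK3. The remaining 4, RUNX2 P1, both RUNX3 promoters and the upstream start of ETS1, carried none of these. The p300/CBP peaks were at the downstream start of ETS1 and at ELK3, and the CTCF peaks at RUNX2 P2 and the downstream start of ETS1. With so few promoters the counts for H3K27ac, H3K4me3, Pol II and H3K4me1 lie near the shares over all promoters. RUNX1 P2 and the start downstream of it share 1 H3K27ac region, 1 H3K4me3 region and 1 Pol II peak, yet count as 2 promoters.

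**Figure D1:**
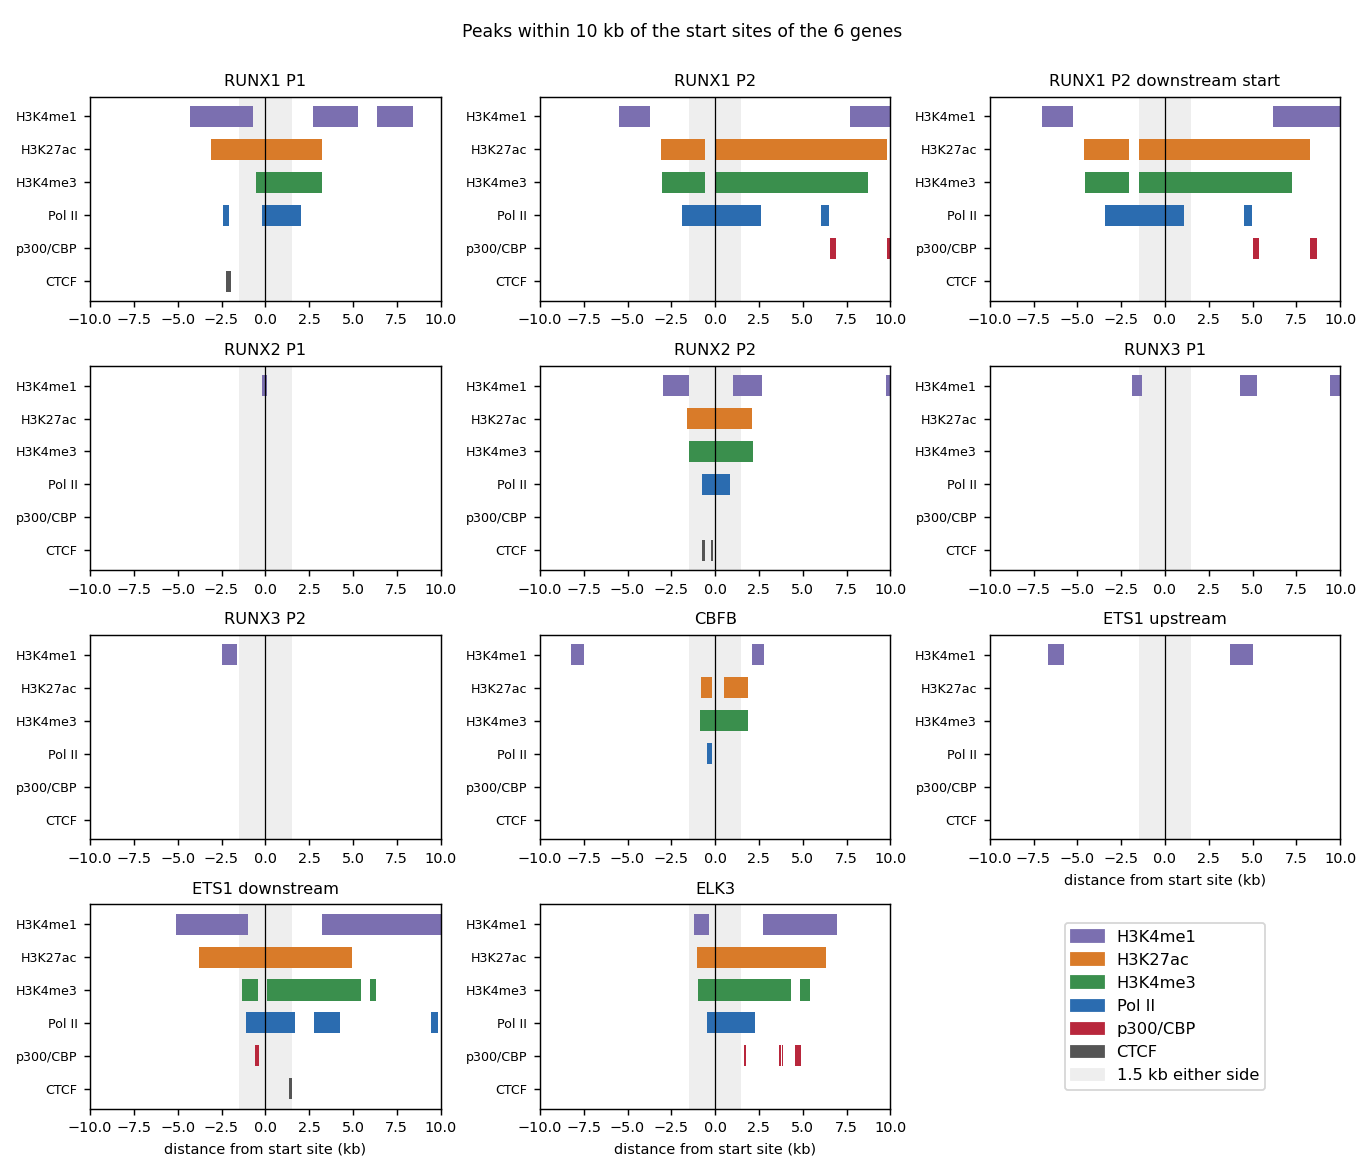
Peaks of the 6 antibodies within 10 kb of each start site, in the direction of transcription (horizontal axis: distance from the start in kb, negative upstream; grey: 1500 bp either side; peaks reaching beyond the plot are drawn to its edge). The 7 starts with H3K27ac also show H3K4me3 and Pol II, and both RUNX3 starts, RUNX2 P1 and the upstream ETS1 start show H3K4me1 at most.

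RUNX1 (chr21:36160098-36421641, minus strand) was the RUNX gene with both promoters marked. At P1, whose canonical start is base 36421599, the H3K27ac region was 6350 bp wide (chr21:36418351-36424701) and reached 3.25 kb downstream of the start. The H3K4me3 region was 3800 bp wide and the Pol II peak 2250 bp, and both covered the start and extended mainly downstream of it. An H3K4me1 region of 3600 bp began 702 bp upstream, and a CTCF peak of 300 bp lay 1.95 kb upstream, outside the window. RUNX2 P1, of nearly the same GC content, carried none of H3K27ac, H3K4me3 and Pol II. Whether base composition bears on these marks was not tested.

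At RUNX1 P2, 161 kb downstream of P1, the marks were wider. H3K27ac covered 9750 bp (chr21:36251201-36260951) from 37 bp downstream of the start at base 36260987, which is wider than 99.4% of all H3K27ac regions, and H3K4me3 covered 8700 bp, wider than 99.7% of its list. Both lists broke off over the start itself, with a gap of 600 bp (chr21:36260951-36261550), and resumed upstream of it with an H3K27ac region of 2550 bp and an H3K4me3 region of 2500 bp. Pol II had no such gap, its peak of 4500 bp (chr21:36258401-36262901) covering the start and also the further start of a short transcript at base 36259480. No H3K4me1 region lay in the window, the nearest being 3.71 kb upstream. The nearest p300/CBP peak was 6.54 kb downstream, within the wide H3K27ac region.

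Pol II in the RUNX1 gene body lay almost wholly downstream of P2. In the 158 kb between the promoters, leaving 1500 bp beside each start, 2 Pol II peaks covered 0.610%, both of them the outer parts of the promoter peaks, while in the 99.4 kb from P2 to the gene end 24 peaks covered 25.1%. H3K4me1 covered 24.9% and 58.5% of these segments, H3K27ac 6.13% and 20.1%, and p300/CBP had 1 and 6 peaks. The segment after P2 is shared by the transcripts of both promoters, so these lists cannot say from which start the polymerase came. A Pol II peak of 3550 bp (chr21:36157901-36161451) spanned the annotated end of the gene.

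Over the whole RUNX1 body, 25 Pol II peaks covered 11.7%, beside a median of 0.657% over all protein-coding genes and of 0.113% over the 1173 genes of like length, those no more than 1.5 times longer or shorter than RUNX1. H3K4me1 covered 37.2% (97.7% of genes of like length had less), H3K27ac 12.8% (97.1% had less) and Pol II more than in 99.4% of these genes. Of the 14 p300/CBP peaks in the body and 200 kb either side, 7 were intragenic and 7 upstream, the latter between 35.8 and 183 kb before P1. No canonical start of a protein-coding gene lay among these upstream peaks. The 3 neighbouring genes whose starts fall in the interval, RCAN1, CLIC6 and an unnamed gene overlapping RCAN1, are on the 3′ side. They had H3K4me3 but no H3K27ac or Pol II at their canonical starts.

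GENCODE also lists RUNX1 transcripts outside the basic set, which start up to 955 kb upstream of P1. None of the 5 starts upstream of P1 had a peak of any list within 1500 bp. With these transcripts the annotated gene spans 1217 kb and takes in the p300/CBP peaks counted above as upstream.

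RUNX2 (chr6:45296054-45632086, plus strand) was marked at P2 and not at P1. The P1 window held a single H3K4me1 region of 300 bp (chr6:45295851-45296151), the least width in that list, which covered the canonical start at base 45296067. The nearest H3K27ac region was 48.2 kb away and covered the start of the antisense neighbour SUPT3H, a subunit gene of the SAGA coactivator, whose start falls inside the RUNX2 body. P2, 94.2 kb downstream at base 45390222, had an H3K27ac region of 3750 bp (chr6:45388601-45392351), an H3K4me3 region of 3700 bp and a Pol II peak of 1600 bp over the start. H3K4me1 flanked it on both sides and was absent from 2500 bp between. CTCF had peaks of 200 and 100 bp, the nearer 122 bp upstream, the only CTCF peaks in the gene body. A long non-coding RNA gene, ENSG00000271857, starts in the same window, and its share in the marks at P2 cannot be told apart from that of RUNX2.

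H3K27ac in the RUNX2 body also lay mainly after P2, with 2 regions covering 3.20% of the 91.2 kb between the promoters and 10 regions covering 11.5% of the 240 kb from P2 to the gene end. Of the 2 regions between the promoters, 1 covered the SUPT3H start and 1 was the outer part of the region at P2. In contrast to RUNX1, Pol II covered 0.104% of the segment from P2 to the gene end, with 1 peak, and 1.59% between the promoters. The latter was the 1 peak over the SUPT3H start. H3K4me3 likewise covered more between the promoters (3.04%) than after P2 (0.823%). The widest H3K27ac region of the RUNX2 neighbourhood was not at a promoter. It covered 11800 bp near the 3′ end of the longest transcripts (chr6:45614201-45626001, wider than 99.7% of the list), beyond the end of the canonical transcript, with 2 p300/CBP peaks, 2 H3K4me3 regions and 1 Pol II peak inside it and no annotated start of any gene. The remaining 3 p300/CBP peaks were in intron 5, 118 kb after the canonical start, and 370 and 382 kb after it, past the gene end. H3K27ac covered more of the RUNX2 body (10.0%) than in 95.9% of the 875 genes of like length, and Pol II (0.982%) more than in 90.3%. Both values include peaks over the SUPT3H start, an H3K27ac region of 2800 bp and a Pol II peak of 1450 bp.

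RUNX3 (chr1:25226002-25291501, minus strand) had no H3K27ac, H3K4me3, Pol II or p300/CBP peak in its gene body. The window of its canonical start, P2 at base 25256767, held no peak of any list, and that of P1, 34.7 kb upstream at base 25291501, held an H3K4me1 region of 600 bp that lay 1300 bp upstream. The nearest H3K27ac region was 57.6 kb from P1 and 92.3 kb from P2. In the body, 6 H3K4me1 regions covered 8.78%, all of them without H3K27ac, which is more of such H3K4me1 than in 91.2% of the 3623 genes of like length, and 1 CTCF peak was present. An absent peak says that the signal did not pass the authors' threshold, not that the mark is absent.

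The RUNX3 interval nevertheless held wide active regions on the 3′ side, beyond the neighbouring gene CLIC4. H3K27ac covered 10650 bp there (chr1:25043701-25054351), wider than 99.6% of its list, together with a Pol II peak of 5700 bp, 3 H3K4me3 regions and 2 p300/CBP peaks, and no annotated start lies inside. All 3 p300/CBP peaks of the interval were 210 to 225 kb downstream of P2, with the CLIC4 promoter, which had H3K27ac, H3K4me3 and Pol II, between them and RUNX3. Their position does not tell which gene they act on.

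CBFB (chr16:67063019-67134961, plus strand) had a narrow promoter domain. An H3K4me3 region of 2700 bp (chr16:67062201-67064901) covered the canonical start at base 67063052, and H3K27ac flanked it with regions of 600 and 1350 bp, leaving a gap of 700 bp over the start (chr16:67062851-67063550). The Pol II peak was 300 bp wide and ended 152 bp upstream, no H3K4me1 lay in the window and no Pol II peak in the gene body. Among the 3461 genes of like length, 71.2% had a Pol II peak in the body. CBFB was also the member without p300/CBP in its surroundings, the nearest peak being 512 kb away.

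The surroundings of CBFB were nevertheless rich in marks of other genes. They held 25 H3K27ac regions, more than around 91.1% of all genes, and 14 of these touched the promoters of neighbours. Of the 24 neighbouring protein-coding genes that start in the interval, 17 had H3K27ac at the canonical start (61.5% of all canonical starts). They also held 25 CTCF peaks, more than around 98.3% of all genes. After exclusion of promoters 5 candidate active enhancers were left, which is the median over all genes, and none was in the CBFB body.

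ETS1 (chr11:128328656-128457453, minus strand) was marked only at its downstream start. The window of the canonical upstream start at base 128457453 held no peak of any list, and the nearest H3K27ac region was 42.3 kb upstream. The downstream start at base 128392205, 65.2 kb away, lay in an H3K27ac region of 8750 bp (chr11:128387251-128396001), wider than 99.1% of the list. H3K4me3 covered 5350 bp from 105 bp downstream and 950 bp upstream of it, with a gap of 500 bp over the start. The Pol II peak was 2800 bp wide (chr11:128390501-128393301), and a p300/CBP peak of 250 bp ended 346 bp upstream of the start and overlapped the upstream H3K4me3 region. A CTCF peak of 150 bp lay 1.35 kb downstream.

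In the ETS1 body nearly all marks lay after the downstream start. Between the starts (62.2 kb) there was no Pol II, H3K4me3 or p300/CBP peak, and H3K27ac covered 3.69%, whereas over the 62.0 kb to the gene end H3K4me1 covered 74.6%, H3K27ac 28.6% and Pol II 4.84%. A single H3K4me1 region of 30750 bp (chr11:128358201-128388951) made up much of this, beside a 90th percentile of 4000 bp over the H3K4me1 list. A Pol II peak of 3200 bp (chr11:128324201-128327401) lay past the annotated end. Candidate active enhancers covered 37.3% of the ETS1 body, more than in 98.7% of the 2450 genes of like length. These are whole H3K4me1 regions that share at least 1 bp with H3K27ac, which itself covered 17.9% of the body. They include the region of 30750 bp and the one beside the marked downstream start.

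Upstream of ETS1 lies FLI1, an ETS gene of blood and endothelial cells, with no peak of any list at its canonical start. Nevertheless FLI1 held H3K27ac regions of 4800, 4800 and 2050 bp and 2 p300/CBP peaks, 122 to 146 kb upstream of the canonical ETS1 start. These elements were counted in the ETS1 interval by position alone.

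ELK3 (chr12:96588153-96663602, plus strand) had the largest share of its body under H3K4me1, Pol II and p300/CBP of the 6 genes. Its start at base 96588153 was covered by H3K27ac over 7350 bp (chr12:96587101-96594451, wider than 98.5% of the list), by H3K4me3 over 5300 bp and by Pol II over 2700 bp, all reaching mainly downstream. The H3K27ac region held 4 p300/CBP peaks between 1.65 and 4.90 kb after the start, the nearest of which falls in the window of the promoter because a further start of the gene lies downstream.

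Pol II covered 30.8% of the ELK3 body in 10 peaks, more than in 99.2% of the 3343 genes of like length and at the 90th percentile of all genes. The widest peaks were in the 3′ part, of 5700 bp in intron 3 and 11050 bp in intron 4 (chr12:96648301-96659351), where no H3K27ac was present. In the 10 kb past the gene end, 3 Pol II peaks covered 32.5%. For comparison, Pol II covered 32.0% of this stretch after ETS1, 22.0% after RUNX1, 9% after CBFB and none of it after RUNX2 and RUNX3; 40.9% of all genes had a Pol II peak there, peaks of neighbouring genes included.

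**Figure D2:**
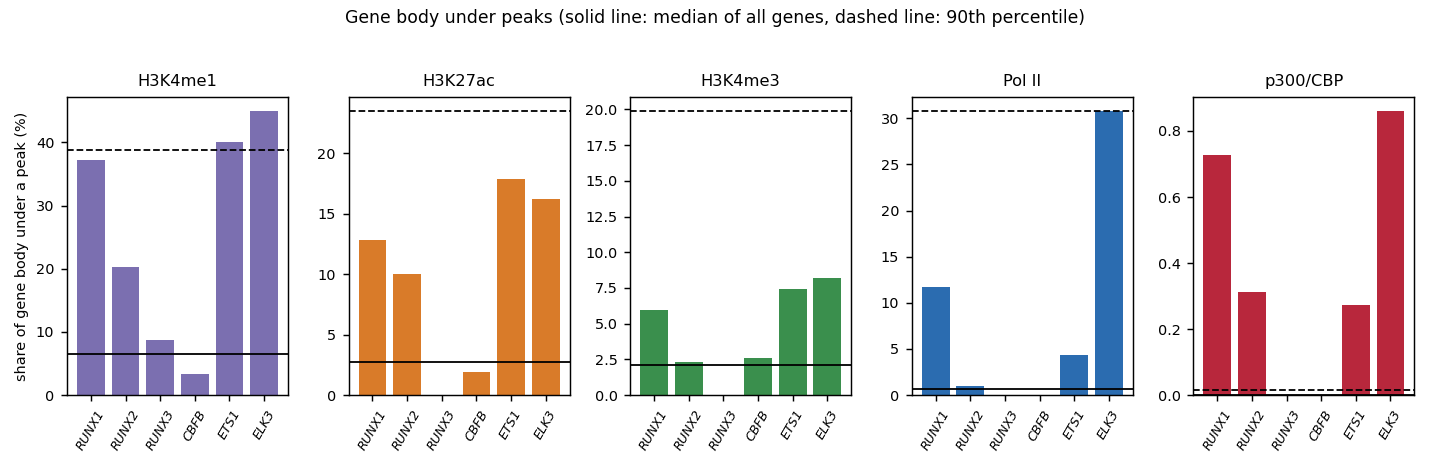
Share of each gene body under peaks of 5 antibodies (vertical axis in percent, starting at 0), with the median (solid line) and the 90th percentile (dashed line) of all 19881 genes. ELK3 reached 45.0% for H3K4me1 and 30.8% for Pol II, RUNX3 stayed at 0 for H3K27ac, H3K4me3, Pol II and p300/CBP, and CBFB at 0 for Pol II and p300/CBP.

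Enhancers around the genes were counted as candidate active enhancers (cAEs), which are H3K4me1 regions that share at least 1 bp with H3K27ac and touch no 3 kb window of a canonical start, and candidate inactive enhancers (cIEs), which lack H3K27ac. In the gene bodies and 200 kb either side, there were 17 cAEs around RUNX1, 16 around RUNX2, 12 around ETS1, 10 around ELK3 and 5 each around RUNX3 and CBFB, beside a median of 5 and a 90th percentile of 12 over all genes. Only canonical starts were excluded, so H3K4me1 regions beside the marked RUNX2 P2 and downstream ETS1 starts count as cAEs. With the windows of all basic starts excluded, the 65 cAEs around the 6 genes became 60. RUNX1 stood above 97.7% of all genes and RUNX2 above 96.8%, but longer genes have longer intervals, and RUNX1 and RUNX2 are longer than 95.3% and 96.8% of all genes. The cIEs numbered 32 around RUNX1, 23 around RUNX3, 22 each around RUNX2, CBFB and ELK3 and 15 around ETS1, beside a median of 11. RUNX3 and CBFB were thus at the median of all genes in cAEs and above 92.8% and 91.2% of genes in cIEs.

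p300/CBP peaks, of which 13984 were listed in the genome, numbered 14 around RUNX1, 7 around ELK3, 5 around RUNX2, 4 around ETS1, 3 around RUNX3 and 0 around CBFB. A p300/CBP peak was thus present around 5 of the 6 genes (54.3% of all genes), and in the gene body of RUNX1, RUNX2, ETS1 and ELK3, 4 of 6 (10.2% of all genes, and 38.4%, 45.3%, 25.1% and 15.7% of the genes as long as each). Of these 33 peaks, 32 touched H3K27ac, as did 6889 of 13983 p300/CBP peaks over all chromosomes read. In a cAE lay 30 of the 33, and none overlapped a CTCF peak. The shares of all p300/CBP peaks in a cAE or on a CTCF peak were not computed. The exceptions to the cAEs were the peak upstream of the ETS1 start, the nearest at ELK3 and, in RUNX1, a peak 167 kb after P1 inside the wide domain at P2, none of which touched H3K4me1. The peak that did not touch H3K27ac was the widest in the RUNX1 body, of 400 bp (chr21:36250801-36251201), which ended where the wide H3K27ac region of P2 began.

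**Figure D3:**
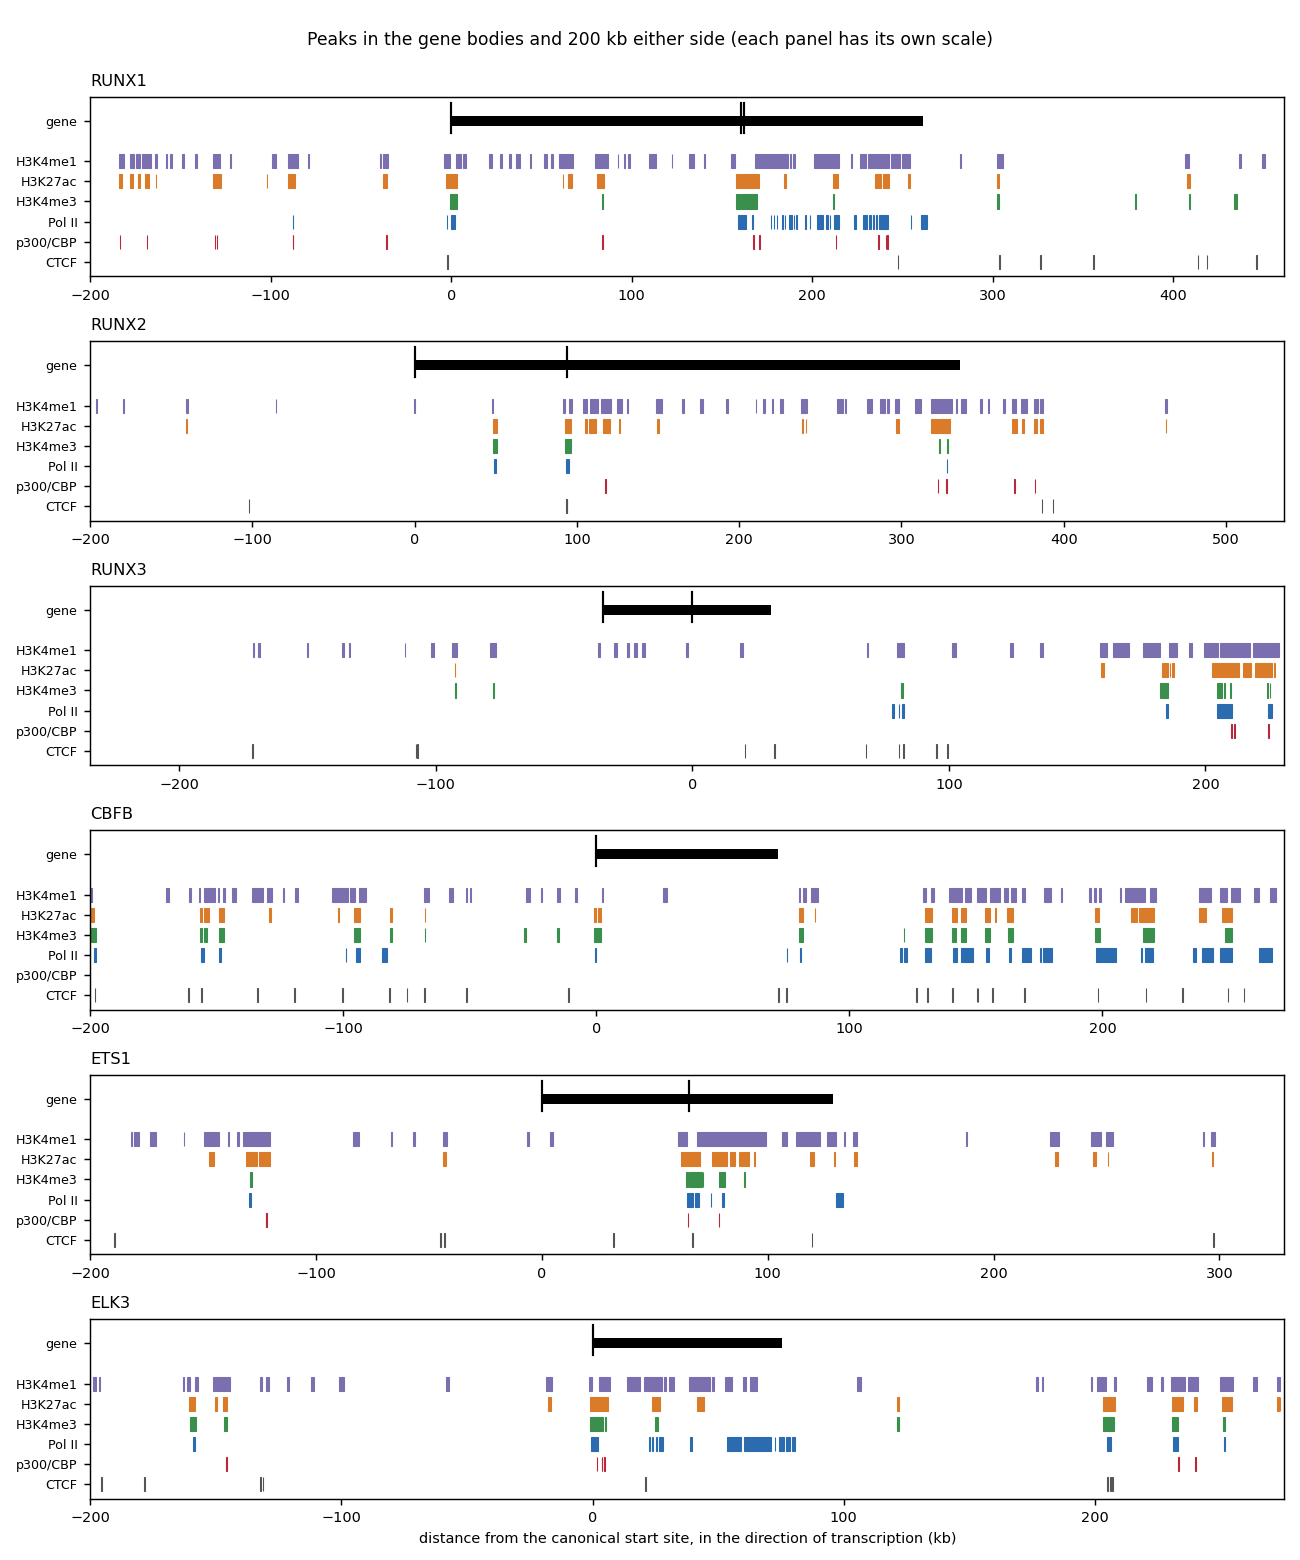
Peaks in the body of each gene (black bar, with vertical lines at the promoters) and 200 kb either side, by distance in kb from the canonical start in the direction of transcription; each panel has its own scale. H3K4me1 and H3K27ac cover more of RUNX1, RUNX2 and ETS1 after the downstream promoter than between the promoters, while H3K4me3 and Pol II of RUNX2 do not. The RUNX3 body holds H3K4me1 and 1 CTCF peak only, and CBFB lies among many marked neighbours.

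**Figure D4:**
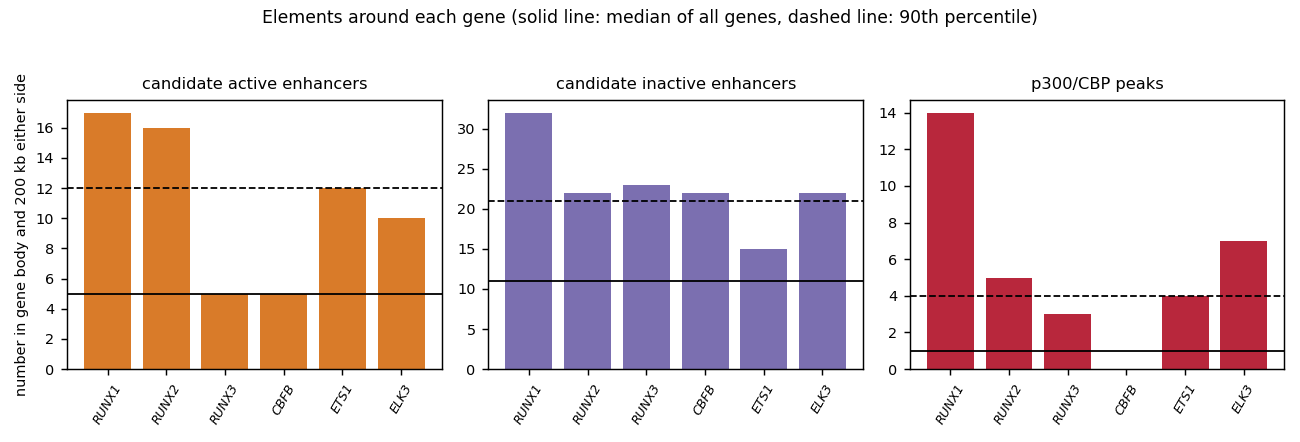
Number of cAEs, cIEs and p300/CBP peaks in each gene body and 200 kb either side (vertical axes start at 0), with the median (solid line) and 90th percentile (dashed line) of all genes. RUNX1 had the highest number in all 3 panels, with 17, 32 and 14.

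To see which factors' letters the p300/CBP sites hold, windows of 200 bp centred on each peak were searched on both strands for AP-1 (TGANTCA), RUNX (TGTGGT), ETS (CCGGAA and, as another form, AGGAAG) and TEAD (GGAATG). The windows shown are the nearest to the canonical start of each gene and the widest in its body, on the plus strand, with these letters or their reverse complement in capitals; none of them touches an annotated exon. They lie at chr21:36457301-36457500 (RUNX1 upstream), chr21:36250901-36251100 (RUNX1 intron), chr6:45413601-45413800 (RUNX2), chr1:25046626-25046825 (RUNX3, past CLIC4), chr11:128392576-128392775 (ETS1), chr12:96589751-96589950 (ELK3, nearest) and chr12:96592776-96592975 (ELK3, widest).
RUNX1 upstream: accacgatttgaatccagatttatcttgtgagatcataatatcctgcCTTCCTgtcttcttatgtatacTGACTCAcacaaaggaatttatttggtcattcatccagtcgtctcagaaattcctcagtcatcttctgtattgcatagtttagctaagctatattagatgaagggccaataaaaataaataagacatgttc
RUNX1 intron: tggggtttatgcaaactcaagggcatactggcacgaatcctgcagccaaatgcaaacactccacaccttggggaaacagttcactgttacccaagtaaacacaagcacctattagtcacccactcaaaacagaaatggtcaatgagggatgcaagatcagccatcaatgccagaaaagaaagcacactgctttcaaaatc
RUNX2: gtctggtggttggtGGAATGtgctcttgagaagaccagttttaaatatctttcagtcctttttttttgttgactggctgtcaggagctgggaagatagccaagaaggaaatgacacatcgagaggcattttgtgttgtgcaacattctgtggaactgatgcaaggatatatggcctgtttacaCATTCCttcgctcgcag
RUNX3: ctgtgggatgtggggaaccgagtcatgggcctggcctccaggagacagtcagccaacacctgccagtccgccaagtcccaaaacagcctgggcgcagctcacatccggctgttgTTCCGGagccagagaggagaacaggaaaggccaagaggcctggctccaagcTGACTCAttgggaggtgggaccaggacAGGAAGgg
ETS1: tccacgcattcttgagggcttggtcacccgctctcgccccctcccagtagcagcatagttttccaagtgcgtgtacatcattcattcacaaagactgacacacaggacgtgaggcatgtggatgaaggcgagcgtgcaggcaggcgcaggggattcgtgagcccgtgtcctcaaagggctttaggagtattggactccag
ELK3 nearest: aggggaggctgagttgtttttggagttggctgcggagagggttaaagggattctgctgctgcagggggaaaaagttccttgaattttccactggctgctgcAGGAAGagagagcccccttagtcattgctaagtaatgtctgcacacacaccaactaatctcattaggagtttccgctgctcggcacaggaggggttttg
ELK3 widest: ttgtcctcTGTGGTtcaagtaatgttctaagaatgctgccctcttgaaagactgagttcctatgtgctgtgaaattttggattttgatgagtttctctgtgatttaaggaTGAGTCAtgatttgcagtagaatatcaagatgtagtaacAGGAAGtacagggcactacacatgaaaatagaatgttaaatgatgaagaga
The ELK3 widest window holds AP-1, RUNX and ETS letters, the RUNX1 upstream window AP-1 and ETS letters, the RUNX3 window AP-1 letters once and ETS letters at 2 places, and the RUNX2 window TEAD letters at 2 places. The ETS1 and RUNX1 intron windows hold none of the 4.

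Of the 33 windows, 16 held AP-1 letters, beside 33.1% of all 13983 p300/CBP windows of the same length and 50.6% of the 6889 that touch H3K27ac, as all but 1 of the 33 do. ETS letters were in 13 (25.9% and 35.3%), TEAD letters in 12 (26.1% and 26.9%) and RUNX letters in 7 (18.6% and 24.6%). By gene, AP-1 letters were in 7 of 14 windows around RUNX1, 4 of 5 around RUNX2, 3 of 7 around ELK3 and 1 each around RUNX3 and ETS1. ETS letters were in 6 of 7 windows around ELK3 and in all 3 around RUNX3, and in none around RUNX2 or ETS1. RUNX letters were in 3 windows around ELK3, 2 around RUNX1 and 1 each around RUNX2 and ETS1. Some neighbouring windows overlap, as 150 bp separate the starts of adjacent peaks upstream of RUNX1, within FLI1 and in ELK3, so these are not independent sites. CTCF peaks in the 6 intervals held a CTCF consensus in 10 of 63, or 15.9%, beside 17.0% of all 39596 CTCF peaks.

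In the promoters themselves, leaving out the upstream ETS1 start, ETS letters were in the 300 bases of ELK3, CBFB, RUNX1 P1, RUNX1 P2 and the downstream ETS1 start, and such letters are found in 48.3% of all canonical promoters. AP-1 letters were in RUNX1 P1 and RUNX2 P1 (5.40%), and TEAD letters in RUNX1 P2 and RUNX3 P1 (11.3%).

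Among the 28 genes of the ETS family, read at the canonical start, 18 had H3K27ac (61.5% of all canonical starts), 16 H3K4me3 (62.7%), 16 Pol II (58.4%) and 0 p300/CBP (0.704%). ELK3 had the widest H3K27ac region of the family at its start, of 7350 bp, followed by ETV1 (5150 bp), ERF (4800 bp) and ETV5 (4400 bp). No histone mark was present at 7 starts (30.3% of all canonical starts), among them ERG, ETS1, ETV3L and FEV. ETS1 and EHF, an epithelial ETS factor named here after its values were seen, were the 2 genes with H3K27ac at another promoter only (1.81% of all genes). Of the paralogues most like ELK3, ELK1 (1450 bp) and ELK4 (1650 bp) had narrower H3K27ac regions.

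**Figure D5:**
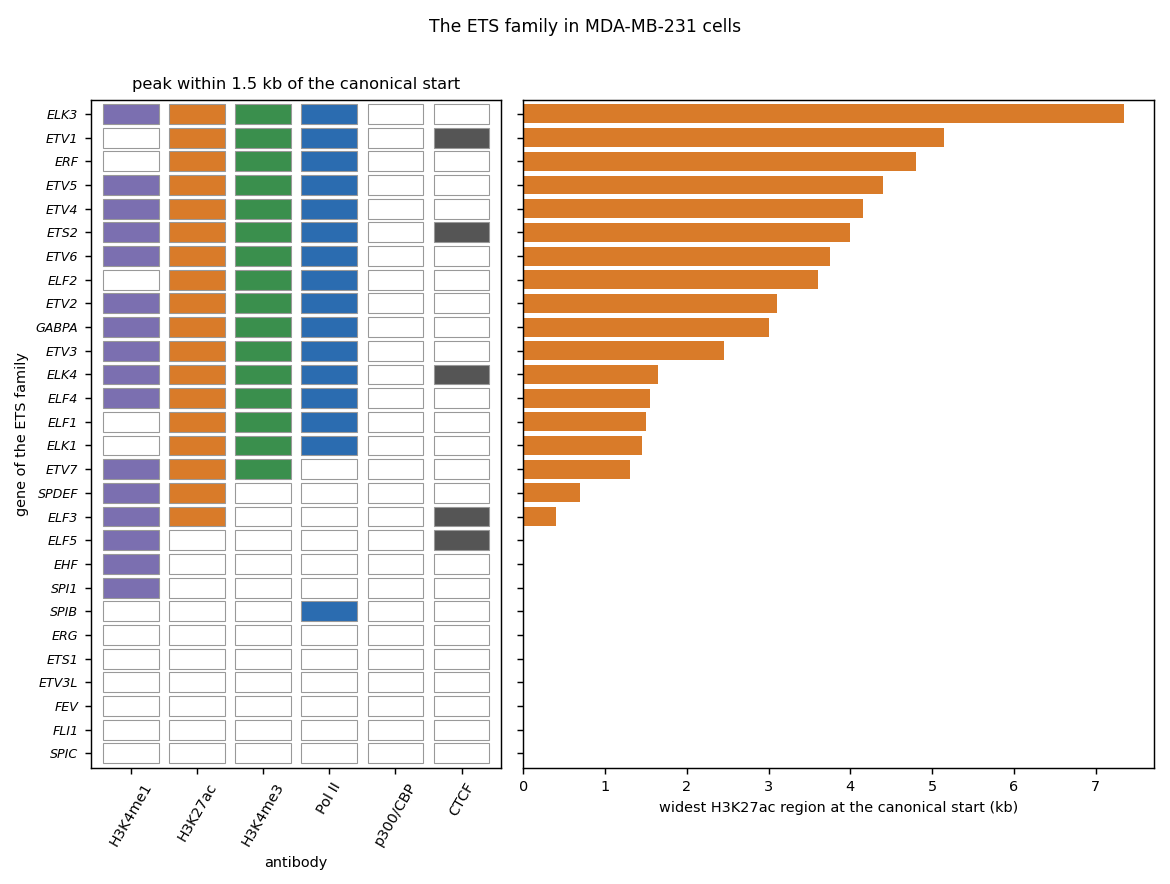
The 28 ETS family genes, ordered by the width of the widest H3K27ac region at the canonical start (right, in kb), with filled squares (left) where a peak of the antibody lies within 1500 bp of that start. ELK3 stands at the top with 7350 bp, and ETS1 is among the genes without a peak at the canonical start, its marks being at the downstream one.

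The partners and known targets were read in the same way at the canonical start. Of 18 RUNX cofactor genes, 15 had H3K27ac (61.5% of all canonical starts), 15 H3K4me3 (62.7%) and 14 Pol II (58.4%), the widest H3K27ac regions being those of SMAD3 (5850 bp), a TGF-beta effector, YAP1 (4850 bp), a Hippo pathway coactivator, SIN3A (4550 bp), a corepressor scaffold, and PRMT1 (4200 bp), an arginine methyltransferase. The 3 without a histone mark (30.3% of all canonical starts) were the corepressor genes CBFA2T3, RUNX1T1 and TLE4, while their relatives CBFA2T2, TLE1, TLE2 and TLE3 had H3K27ac. SRF and its partners (SRF, MRTFA, MRTFB, ELK1, ELK3 and ELK4) had all of H3K27ac, H3K4me3 and Pol II, 6 of 6, beside 56.3% of all genes.

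Of 15 genes known as RUNX targets, 3 had H3K27ac at the canonical start (61.5% of all canonical starts): VEGFA (5750 bp), CDKN1A (3200 bp) and CSF2 (3150 bp). CSF2, a myeloid growth factor gene, also had a p300/CBP peak at its start but no Pol II peak. No histone mark was found at 9 of these starts (30.3% of all), among them CD4, COL10A1, CSF1R and IBSP, but CSF1R had H3K27ac at its other promoter. Of 12 ETS targets, 6 had H3K27ac, near the share of all genes, with the widest regions at PLAU (10050 bp), the urokinase gene, MET (4250 bp) and FOS (3350 bp), while 4, including the collagenase gene MMP1, had H3K4me1 alone among the histone marks (5.55% of all genes). FLT1 had no histone mark.

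Marker genes were read to check the label of the cell line. All 6 basal B and mesenchymal genes (VIM, CD44, AXL, FOSL1, CAV1 and EGFR) had H3K27ac, H3K4me3 and Pol II at the canonical start, beside 56.3% of all genes. Of 6 luminal genes 3 had H3K27ac (FOXA1, ERBB3 and SPDEF), which lies near the 61.5% of all genes, and ESR1 and GATA3 had no histone mark there. GATA3 nevertheless had H3K27ac over 28.3% of its body, with 1 p300/CBP peak there. At the canonical start, H3K27ac was at none of the 6 blood genes, the 3 bone genes and the 2 epithelial junction genes, CDH1 and EPCAM, and at 1 of 2 endothelial genes found in the annotation, CDH5. EPCAM had H3K27ac at 1 of its 2 promoters, and the blood gene PTPRC had H3K27ac over 12.6% of its body, with 4 p300/CBP peaks there.

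Over all 19881 genes, likeness was measured as the distance over 12 percentiles, those of the share covered by each list in the canonical 3 kb window and in the gene body with 20 kb either side. The genes closest to ELK3 were CD44 (distance 16.1), PPP6R1 (19.5) and PFKP (21.2), and among the 3 closest to RUNX1 were ENSG00000273269 (22.3) and ELK3 (25.2). RUNX1 ranked 10 among the genes closest to ELK3. ETS1 and RUNX2, whose canonical starts both lacked H3K27ac while their bodies did not, were 52.9 apart. Only 0.277% of genes were closer to ETS1 than RUNX2 was. All remaining pairs of members were further apart, from 105 (RUNX2 and RUNX3) to 192 (RUNX3 and ELK3). For comparison, the median distance to all genes ran from 101 for CBFB to 137 for ETS1, so most members were not alike. The closest to RUNX2 were CACNG2, PALLD and B3GALT5, to RUNX3 PLA2G7, VANGL2 and SPADH, to CBFB EFHD1, TRAPPC2 and LONRF3, and to ETS1 PROZ, CASS4 and SLCO4A1.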

How the data were processed

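Processed peak lists of MDA-MB-231 cells were used for 11 libraries (2 each for H3K4me1, H3K27ac, H3K4me3, Pol II and CTCF, and 1 for p300/CBP); the 2 inputs were left out. Per the authors' methods, reads were aligned to hg19, unique reads were counted in 50-bp bins, replicates were merged and peaks were called by thresholding in a genome browser (30 for H3K4me1 and H3K4me3, 50 for H3K27ac, Pol II and CTCF, 60 for p300/CBP), with gaps between bins bridged up to 1000 bp (H3K4me1), 800 bp (Pol II), 500 bp (H3K27ac and H3K4me3) and 50 bp (p300/CBP and CTCF). The methods name BWA and the submitters' processing notes Bowtie2 as the aligner. The deposited lists hold chromosome, start and end only, so depth is unknown, and a missing peak is a signal under the threshold. The p300/CBP list holds 13984 peaks, more than the paper reports at the same threshold, and the reason is not known. By their names, the histone mark and p300/CBP signals were scaled and background-subtracted, that of Pol II was scaled and that of CTCF neither. All starts and ends are 1 past a multiple of 50, and ends were taken as the first base after the peak; peaks are printed as listed, genes and sequences with their last base.

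Intervals were compared in Python 3.11.15 with NumPy 2.4.6 and drawn with matplotlib 3.10.9, after checking that the peaks lie within the GRCh37 chromosomes; the interval and motif functions were tested on simulated data. Genes and starts came from GENCODE release 44 mapped to GRCh37 on chromosomes 1 to 22, X and Y, and sequences from GRCh37. No column of values was left unmapped. No test was planned or made: the 6 genes, the gene lists and the motifs were chosen with earlier results of these data known, and each value is set beside the share or percentile over all genes, promoters or peaks. Named genes are the 6 members, the 3 genes most alike each of them and, from each list, up to 4 with the widest H3K27ac region at the canonical start and up to 4, in alphabetical order, without a histone mark. Other genes named beside small counts, the gene segments between starts, the stretch past the gene ends and the tandem RUNX search were chosen after values had been seen. Of the named genes and promoter sequences, 3 items are not reported here.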

Additional observations from a re-analysis of the deposited data

How the results depend on the processing

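No paired analysis was possible because each list pools its replicates; leaving out a replicate or raising the signal threshold was likewise not possible, as peaks carry no values. Of 54 alternatives over 12 counts, 31 stayed within 1.5 times the value given above as counts, whatever the number of promoters. Promoters with H3K4me1 fell from 6 to 2 in windows of 500 bp either side, to 1 when the start itself had to lie in a peak and to 3 with only the wider peaks of the list (median width or more), and were 11 of 30 over starts of all transcripts. At the 6 canonical starts alone there were 3 with H3K27ac (61.5% of all canonical starts), 3 with H3K4me3 (62.7%), 3 with Pol II (58.4%) and 0 with p300/CBP (0.704%). There were also 3 with H3K4me1 and 0 with CTCF. Of the 7 promoters with H3K27ac, 4 hold no canonical start. Over starts of all transcripts, promoters with Pol II were 12 of 30 and those with H3K27ac and H3K4me3 9 of 30 each, a lower share than 7 of 11. Shares over the starts of all transcripts of all genes were not computed. For p300/CBP the 2 promoters became 1 at 500 bp, 0 for the start itself and 1 with wide peaks, and for CTCF 1, 0 and 0. The 65 cAEs became 37 within 100 kb, 24 in the gene bodies and 28 when at least 50% of the region had to be covered by H3K27ac, and the 33 p300/CBP peaks 21 and 16 within 100 kb and in the gene bodies. The order of RUNX1 and RUNX2 in cAEs changed with these settings. In the gene bodies RUNX1 had 7 and RUNX2 10, and under the 50% rule 7 and 8. TEAD letters fell from 12 windows to 6 when windows were 100 bp. Windows that are shorter, or peaks that are fewer, hold less by construction.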
